A study of Mus musculus with 24 samples.

Results

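In mouse liver, 17994 narrow stretches of chromatin were open in every one of 6 peak lists, 36.5% of the 49364 merged regions of chromosomes 1 to 19. The lists came from FAIRE-seq of C57BL/6J and A/J liver, a pair of inbred strains, with 1 list per strain and diet. Control mice ate control diet for 16 weeks, HF mice ate high fat diet for 16 weeks, and Reversal mice spent 8 weeks on high fat diet before 8 weeks on control diet. The diet tag of the Reversal samples reads 16 weeks for the control diet, and the treatment protocol, which gives 8, was followed. Fewer weeks of high fat diet and the return to control diet cannot be told apart in the Reversal mice. Each strain and diet had 2 FAIRE libraries, 12 in all, and the labels do not say whether these were separate animals or whether libraries were pooled for a list. Neither age nor sex is stated there. The tissue is labelled liver, and without genes at the regions this was not checked against markers.

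The narrow regions were chosen by the deposited peaks themselves. Peaks of the 6 lists were merged where they shared 1 bp or more, and a merged region was kept when it held a peak in each list and measured under 1500 bp from start to end. Presence in all lists and small width are therefore not findings. Every list entered the choice, so all values below are descriptions with no test. With 1 list per strain and diet there was no replicate against which a difference could be set. Depth per library is not given either, and its part in any difference between lists was not tested.

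FAIRE-seq recovers DNA that is poorly crosslinked to nucleosomes, so that its peaks mark open chromatin. In liver, as in other tissues, such sites are mostly promoters and enhancers held open by transcription factors, and sites open in many conditions include promoters of broadly expressed genes and sites bound by the architectural factor CTCF. Positions are given in mm9, 1-based. The gene models and sequences at hand are of another assembly, so genes at these positions were not analysed here and no sequence is shown.

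Of the 20381 regions with a peak in all 6 lists, 88.3% were narrow and the other 2387 measured 1500 bp or more. The narrow regions covered 13.9 Mb, with a median width of 734 bp (quartiles 492 and 1017, lowest 229, highest 1499). In 17035 of them (94.7%) each list contributed a single peak. Neighbouring narrow regions lay a median of 30.6 kb apart (quartiles 9.36 and 93.3 kb). They took in between 50.7% of the autosomal peaks of the A/J Control list and 58.0% of those of the C57BL/6J Reversal list.

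The deposited signal is the authors' own value per peak. Its scale is not stated, so differences between lists were counted on ranks within a list. Signal values are also given below, and a fixed signal cut marked the most extreme regions. Whether signals can be compared between lists is not known. Over the narrow regions the C57BL/6J lists had medians of 0.257 on Control, 0.271 on HF and 0.342 on Reversal, against 0.619, 0.442 and 0.584 for the A/J lists. In the whole list, where 100% stands for the strongest peak, the median narrow region stood at 65.9%, 64.8% and 64.8% for C57BL/6J, against 69.0%, 66.7% and 67.7% for A/J. Wide shared regions stood higher, with medians between 83.3% and 85.1%. Regions found in 5 lists stood lower, between 23.7% and 40.8%, and were narrower still, with a median width of 465 bp. Of those 2983 regions, 1478 lacked the C57BL/6J Control peak and 126 lacked the A/J Control peak. C57BL/6J Control was the list most often missing from an otherwise shared region.

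The width limit cut through a continuous range. Just inside it lay chr3:104667014-104668512 and chr3:144382263-144383761, both 1499 bp wide. The first stood between 87.1% and 91.3% of the whole lists, the second between 72.8% and 82.3%. Just outside, at 1500 bp, lay chr2:167486159-167487658, which stood between 78.2% and 83.6%, and chr7:127986063-127987562, between 80.3% and 86.7%. The first region inside the limit stood above both regions outside it, and the second overlapped them.

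To compare lists of different length, the 17994 narrow regions were ranked by signal within each list over the same set, with 100 for the strongest, and differences between lists are given in rank points. A region with several peaks in a list took the highest of their signals. Ranks were steadiest at the top, loosest between 20 and 40 points and steadier again at the foot. The range over the 6 lists had a median of 17.5 points (quartiles 9.95 and 27.6), and 5514 regions (30.6%) stayed in the same 20-point band in all lists. Of the regions in the top band, 2579 (71.7%) were there in every list. The same held for 303 (8.42%) of those between 20 and 40 points and 1074 (29.9%) of those in the lowest band. Regions were also ordered by mean rank and divided into 5 equal sets. The median range was 6.22 points in the strongest set, 27.9 in the second weakest and 19.5 in the weakest. Ranks are bounded at both ends of the order, which leaves less room to move there. Median width rose with mean rank, from 472 bp in the weakest set to 1030 bp in the strongest.

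At the top stood a small group of extreme signal, whose source was not tested. There were 34 narrow regions with a signal of 10 or more in all 6 lists, against medians below 1. None of them moved by more than 0.0778 rank points. Only 35 to 39 narrow regions reached that signal in any list, so the choice itself left these 34 almost no room to move in rank. The strongest was chr2:98506210-98507705, 1496 bp wide, whose signal was 182.7 on Control, 190.6 on HF and 203.7 on Reversal for C57BL/6J, against 252.6, 228.3 and 241.5 for A/J. It ranked first among the narrow regions in every list except A/J Reversal. There chr13:85265970-85267366 led with 255.5, after 96.4, 113.8 and 169.3 in C57BL/6J and 178.8 and 153.6 on A/J Control and HF. Next by mean rank came chr6:79767782-79768578, from 80.3 on C57BL/6J Control to 221.5 on A/J Reversal, and by chr18:3638639-3639389, from 74.6 to 192.9 in the same lists. Leaving out the 43 regions with a signal of 10 or more in any list moved none of the counts of differences recomputed without them by more than 1.5 times.

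The weakest narrow region was chr9:42716769-42717187, at rank 0.19 on Control, 1.29 on HF and 1.18 on Reversal for C57BL/6J, against 0.25, 0.62 and 1.68 for A/J. It was near the foot of every list and still present in all. In the middle of the order, chr16:30188992-30189614 was the steadiest between ranks 40 and 60, with 43.6, 41.8 and 42.6 for C57BL/6J, against 41.6, 43.3 and 43.1 for A/J. Its signal meanwhile ran from 0.221 on C57BL/6J Control to 0.498 on A/J Control. A second steady region, chr5:45911259-45912183, ranked between 55.3 and 57.6 in all lists.

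Peak summits were stable. The summits of the 6 lists lay within a median of 19 bp of each other (quartiles 12 and 31), and within 50 bp in 15741 regions (87.5%). In 1026 regions (5.70%) they spread over more than 200 bp. Between single lists the median distance was 5 bp for A/J Control and A/J Reversal and 11 bp for the Control lists of both strains. Regions whose ranks did not overlap between strains had a median spread of 19 bp, as did the other narrow regions.

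Lists of a strain were mostly close in rank, with exceptions. The closest of the 15 pairs were A/J Control and A/J Reversal, with a median absolute difference of 2.93 points and a Spearman correlation across regions of 0.983. C57BL/6J HF and C57BL/6J Reversal came next, at 3.67 points and 0.967. By median difference the farthest apart were the Control lists of C57BL/6J and A/J, at 12.2 points and 0.727, and by correlation C57BL/6J Control and A/J Reversal, at 11.9 points and 0.723. C57BL/6J Reversal and A/J HF, which differ in strain and diet, were 4.70 points apart, with a correlation of 0.927 and 8.04% of regions differing by 20 points or more. C57BL/6J Control and HF were 4.94 points apart, with 0.942 and 5.94%, so that the order of these 2 pairs depends on the measure. C57BL/6J Control and Reversal were 6.11 points apart, with 0.925 and 8.76%. These correlations are across regions of the same lists and carry no p.

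**Figure D1:**
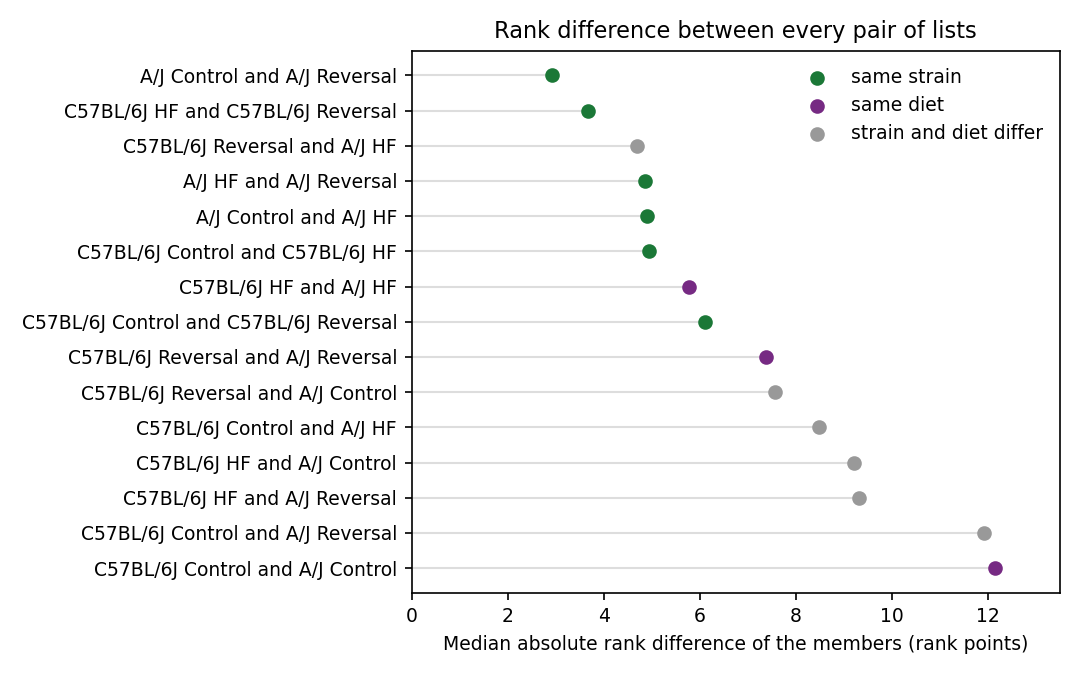
Median absolute rank difference of the 17994 narrow regions, in rank points (x axis), for each of the 15 pairs of lists (y axis), coloured by whether the pair shares strain, diet or neither. The smallest value is 2.93 for A/J Control and A/J Reversal and the largest 12.2 for the Control lists of the 2 strains.

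Most of the variation in rank lay along a single axis. With each region's mean rank taken off, the first principal component held 77.7% of the remaining variation and the next 8.75%. Its loadings were 0.60 for C57BL/6J Control, 0.32 for C57BL/6J HF, 0.21 for C57BL/6J Reversal, -0.17 for A/J HF, -0.48 for A/J Control and -0.49 for A/J Reversal. The lists of a strain fell on the same side, and the diets came in a different order in each strain. The order of the loadings was that of the lists' median signal over the narrow regions, from 0.257 in C57BL/6J Control to 0.619 in A/J Control, except that A/J Control and A/J Reversal changed places. The part of signal strength in these rank differences was not tested. The component was computed after the pairs of lists had been seen.

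On control diet the strains differed most. In A/J, 2897 narrow regions ranked 20 points or more higher than in C57BL/6J and 2699 ranked that much lower, together 31.1%. On HF the counts were 727 higher and 973 lower (9.45% together), and on Reversal 1408 higher and 1278 lower (14.9%). By the place in the whole list, 65.9% of the differences on Control were upward in A/J, against 51.8% by rank among narrow regions, and on HF 60.5% against 42.8%. The direction on HF thus depends on what is ranked. Among all regions with a peak in both lists of a comparison, ranked over those, 14.0% were higher and 12.3% lower on Control, against 15.9% and 12.4% of the narrow regions on that scale. This background and each one below include all narrow regions, so the shares set side by side are not independent. On HF the background was 5.64% higher and 6.70% lower, against 3.73% and 4.97% of narrow regions. On Reversal it was 8.60% and 7.57%, against 5.37% and 8.57%, where the order of higher and lower also turns. The narrow regions differed between strains at a share near or below that of all regions in every case but the higher class on Control and the lower class on Reversal.

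**Figure D2:**
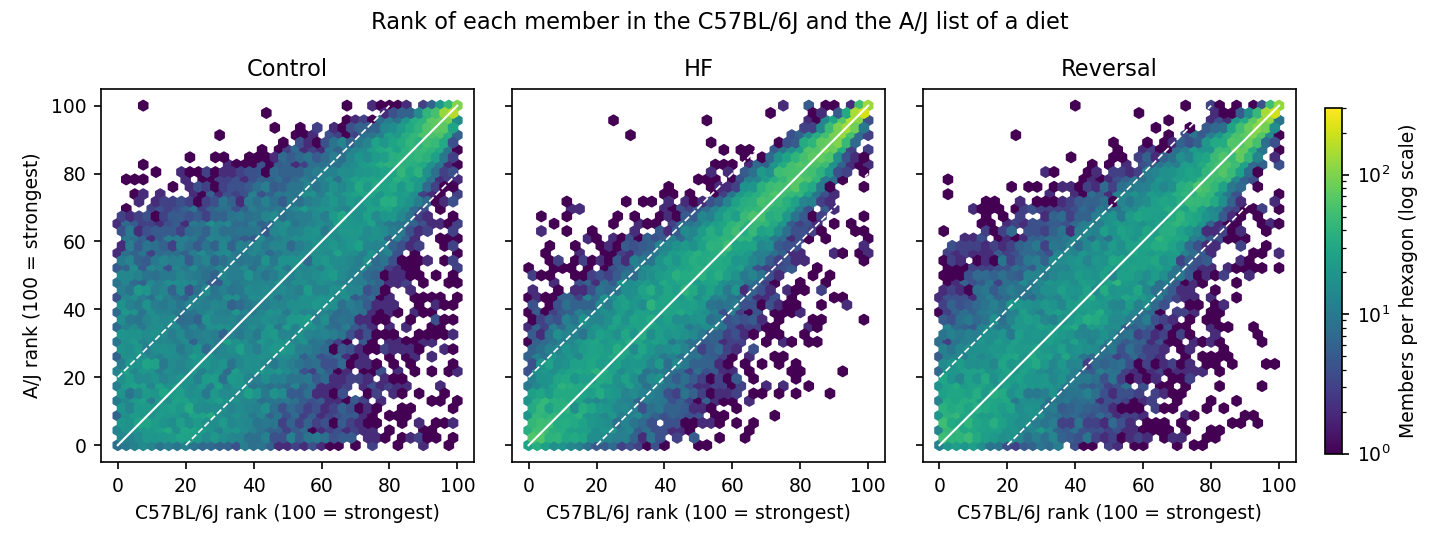
Rank of each narrow region in the C57BL/6J list (x axis) and the A/J list (y axis) of the same diet, 100 being the strongest, with colour for the number of regions per hexagon on a log scale. Dashed lines mark a difference of 20 points, beyond which lay 31.1% of regions on Control, 9.45% on HF and 14.9% on Reversal.

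Strain differences were alike between diets. The comparisons on Control, HF and Reversal share no list, and across the narrow regions the strain difference on Control correlated with that on HF at a Pearson r of 0.69, that on Control with that on Reversal at 0.83 and that on HF with that on Reversal at 0.74, over 17994 regions that share their libraries and with no p. Of the 1408 regions picked on Reversal as higher in A/J, 98.9% were higher in A/J on Control too and 94.0% on HF. In the lists that did not pick them their median rank was 12.3 on Control and 25.1 on HF for C57BL/6J, against 49.2 and 41.7 for A/J. The 1278 regions picked as lower in A/J had median ranks of 59.96 on Control and 53.0 on HF for C57BL/6J, against 18.6 and 32.2 for A/J. For both sets the strains were closer on HF (median difference 14.8 and -19.6 points) than on Control (34.2 and -36.1).

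In 4406 narrow regions all 3 A/J ranks lay above all 3 C57BL/6J ranks, which is 24.5%, and in 4553 (25.3%) they all lay below. Among all 20381 regions with a peak in every list the shares were 24.4% and 25.5%. Narrow regions make up 88.3% of these, which leaves little room for a difference. The shares therefore cannot show whether narrow regions stand out. The mean strain difference reached 20 points in 1445 of the higher and 1266 of the lower regions, and 40 points in 73 and 208. Processing notes name mm9, an assembly of the C57BL/6J strain, and no other. A strain difference in open chromatin and a difference in how reads of each strain map cannot be told apart here.

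The largest mean difference upward was at chr6:18795615-18796232, which ranked 5.18 on Control, 10.2 on HF and 1.83 on Reversal for C57BL/6J, against 71.9, 72.0 and 79.3 for A/J. Its signal was 0.0989, 0.118 and 0.111 against 1.06, 0.804 and 1.19. The strains did not overlap, and the diets of a strain lay within 10 points of each other.

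A region with a diet difference in C57BL/6J as well was chr4:62179441-62180239, at rank 6.61 on Control, 51.6 on HF and 39.2 on Reversal, against 99.5, 95.6 and 99.5 in A/J. It was near the top of each A/J list. The region chr6:48487050-48488069 held 29.0, 30.3 and 22.5 in C57BL/6J against 91.1, 92.5 and 91.6 in A/J, and chr1:182216225-182217030 held 5.23, 4.35 and 2.83 against 66.6, 63.1 and 73.3. In both of these the diets of a strain lay closer together than the strains.

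The 4 largest differences downward were larger than those upward. The region chr11:82777256-82777689 ranked 90.6 on Control, 83.4 on HF and 81.3 on Reversal for C57BL/6J, against 1.26, 18.1 and 2.68 for A/J. At chr2:58278353-58278955 the ranks were 92.3, 88.0 and 71.4 against 3.33, 15.1 and 2.36. At chr4:50180081-50180523 they were 99.0, 93.8 and 90.0 against 2.86, 40.6 and 9.65. At chr6:29697790-29699150 they were 99.5, 99.4 and 92.6 against 21.3, 36.8 and 7.10. In all 4 of these regions the highest A/J rank was that on HF and the highest C57BL/6J rank that on Control, the order in which the lists fell on the leading component.

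**Figure D3:**
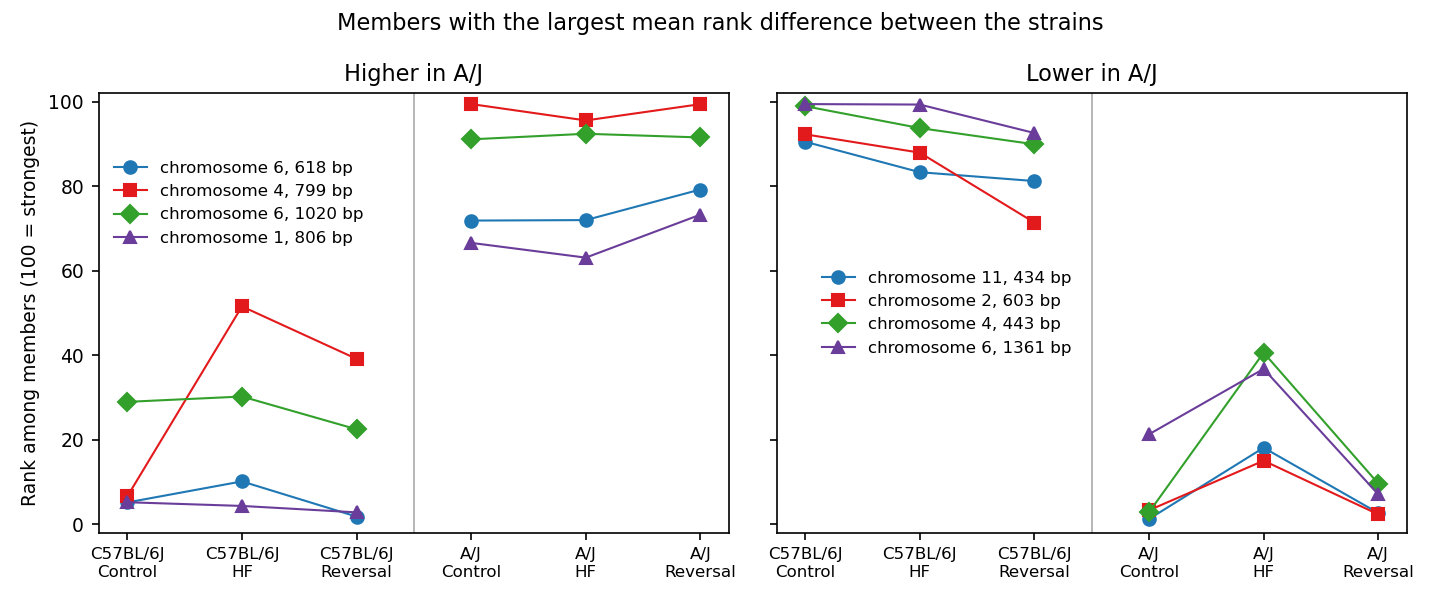
Rank among the narrow regions (y axis) in each of the 6 lists (x axis) for the 4 regions with the largest mean difference in each direction, named by chromosome and width. A/J ranks are 63.1 or more in the left panel and 40.6 or less in the right one, with no overlap between strains.

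Peaks were wider in A/J, and this moved with the strain difference. In narrow regions the median peak measured 544, 534 and 566 bp in the Control, HF and Reversal lists of C57BL/6J, against 672, 619 and 610 bp in those of A/J. The mean peak was wider in A/J in 81.6% of narrow regions. That share was 93.9% among regions ranked above C57BL/6J in all lists and 62.1% among those ranked below, with median width ratios of 1.26 and 1.03. By width of the merged region, those from 400 to 600 bp ranked 20 points or more higher in A/J on Control in 25.8% and lower in 17.6%. The narrowest of 6 width classes, under 400 bp, went the other way, with 14.05% higher and 20.97% lower. In the widest class 7.43% ranked higher and 9.10% lower, so that both directions were less frequent there. Across regions the width ratio and the mean strain difference had a Spearman correlation of 0.54. Width and signal come from the same peaks, and the part of peak width in the result was not tested.

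Strain differences were partly shared by close neighbours. For 1113 pairs of neighbouring narrow regions under 1000 bp apart, the mean strain difference of one correlated with that of the other at a Pearson r of 0.41. The value was 0.27 for gaps of 1000 to 5000 bp, 0.20 for 5000 to 10000 bp, 0.11 for 10000 to 50000 bp and 0.08 beyond 200000 bp. The mean rank itself had lower values, with r of -0.01 under 1000 bp and 0.07 from 1000 to 5000 bp. It had 0.08 from 5000 to 10000 bp, 0.07 from 10000 to 50000 bp and 0.003 beyond 200000 bp. Whether close regions share sequenced fragments was not tested. Chromosome 18 leaned toward C57BL/6J: of its 458 narrow regions 172 (37.6%) ranked lower in A/J in all lists and 92 (20.1%) higher. On the other chromosomes the lower share ran from 22.1% on chromosome 11 to 28.5% on chromosome 15. The median strain difference on chromosome 18 was -3.73 points on Control, -2.24 on HF and -3.25 on Reversal.

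Few narrow regions differed much in rank between HF and Control. In C57BL/6J, 623 narrow regions ranked 20 points or more higher on HF than on Control and 446 ranked that much lower, and 50.4% differed by 5 points or less. In A/J, 405 ranked higher and 314 lower, with 50.8% within 5 points. Among all regions with a peak in both lists, ranked over those, 5.35% were higher and 4.12% lower in C57BL/6J, against 6.75% and 1.55% of narrow regions on that scale. In A/J the background was 3.31% and 3.07%, against 3.54% and 0.934%. The excess of higher over lower depends on the scale and on the difference counted. By the place in the whole list 62.4% of the C57BL/6J and 52.3% of the A/J differences were upward, against 58.3% and 56.3% by rank among narrow regions. When 10 points were counted, 48.7% and 44.6% were upward, so that lower regions were then the more frequent in both strains. None of these C57BL/6J regions lay in the strongest set by mean rank, and in A/J 19 of the 405 did and none of the 314.

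The regions higher on HF in C57BL/6J had a median width of 616 bp and those lower 452.5 bp. In A/J the order was the reverse, 417 and 577.5 bp. The classes also differed in strength. In C57BL/6J, 6.26% of the higher and 52.9% of the lower regions lay in the weakest set by mean rank, whose median width was 472 bp. In A/J these shares were 4.44% and 24.8%, so the class with more weak regions was the wider one there. The part of strength in these widths was not tested. In the 405 regions higher on HF in A/J the summits of the 6 lists lay within a median of 11 bp. This was 24 bp in the 314 lower ones and 19 bp in all narrow regions. The spread also varied with width, from a median of 14 bp under 400 bp to 19 bp from 400 to 600 bp. The part of width in the contrast was not tested.

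The largest difference upward in C57BL/6J was at chr13:34145813-34147125, which ranked 8.49 on Control, 58.5 on HF and 60.9 on Reversal, against 82.5, 68.1 and 77.2 in A/J. C57BL/6J Control was the list that stood apart there. At chr18:68851644-68852000 the HF list stood apart instead, with 93.4 against 45.2 on Control and 21.4 on Reversal, and A/J ranks of 12.8, 21.5 and 10.02. The largest difference downward was at chr17:3077405-3078020, at 52.1 on Control, 7.02 on HF and 12.9 on Reversal, against 3.53, 9.74 and 2.55 in A/J.

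In A/J the largest difference upward was at chr17:65931428-65931917, which ranked 12.02 on Control, 56.9 on HF and 17.4 on Reversal while it held 99.4, 97.7 and 95.9 in C57BL/6J. At chr3:156989510-156989925 the A/J ranks were 19.6, 61.9 and 26.2 and the C57BL/6J ranks 84.5, 71.1 and 65.3. Both stood far higher in C57BL/6J than on A/J Control, and the A/J HF list lay between. Downward the largest was at chr15:83951490-83952064, at 54.8 on Control, 14.7 on HF and 34.6 on Reversal in A/J. In C57BL/6J that region ranked 23.6, 9.68 and 54.9, so that HF was the lowest list in both strains.

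The difference between HF and Control tended to have opposite signs in the 2 strains. The comparisons share no list, and across the 17994 narrow regions the HF minus Control difference in C57BL/6J and in A/J had a Pearson r of -0.37 (Spearman -0.35), given with no p. Only 6 regions differed by 20 points or more the same way in both strains, and 132 did so in opposite ways. Among all regions with a peak in the 4 lists, ranked over those, the shares were 0.0189% and 0.586%, against 0.0222% and 0.617% of narrow regions on that scale. Narrow regions were all 4 of the former regions and 111 of the 124 latter ones, so these shares count mostly the same regions. The 623 regions higher on HF in C57BL/6J had a median A/J difference of -9.19 points (quartiles -14.6 and -2.33), and 10.8% of them were 20 points or more lower in A/J, against 1.75% of all narrow regions. The 405 higher on HF in A/J had a median C57BL/6J difference of -12.7 points (quartiles -17.7 and -5.93).

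In these 132 regions the strains lay closer together on HF than on Control. The 67 that were higher on HF in C57BL/6J and lower in A/J had median ranks of 6.10 on Control and 34.4 on HF for C57BL/6J, against 58.7 and 35.1 for A/J. The 65 that went the other way had 68.9 and 46.0 for C57BL/6J, against 13.3 and 40.4 for A/J. These medians are of regions chosen on the same 4 lists. On Reversal, which did not choose them, the first set had 34.9 in C57BL/6J and 52.6 in A/J and the second 51.0 and 12.8. In each set the C57BL/6J Reversal rank lay nearer to HF and the A/J Reversal rank nearer to Control. All narrow regions together showed the same. By median absolute difference C57BL/6J Reversal was 3.67 points from HF and 6.11 from Control. A/J Reversal was 2.93 points from Control and 4.86 from HF.

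Of the 6 regions that differed the same way, the 3 that were higher on HF in both strains were each lower again on Reversal. At chr9:123370417-123371401 the ranks on Control, HF and Reversal were 68.5, 99.7 and 58.2 for C57BL/6J, against 27.1, 55.9 and 25.6 for A/J. At chr19:45724342-45724889 they were 62.5, 84.5 and 46.5, and 4.78, 36.8 and 3.40. At chr8:15519770-15520126 they were 41.0, 72.0 and 17.1, and 22.8, 43.4 and 13.4. The HF list was the highest of its strain in each. The choice itself put HF above Control and favoured high HF ranks, so the lower Reversal ranks are a description. Lower on HF in both strains were chr9:72614583-72615673, at 33.8 on Control and 7.45 on HF for C57BL/6J, against 28.9 and 6.72 for A/J, and 2 weak regions like it, chr15:84981821-84982171 and chr5:110860273-110861454.

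Reversal differed from Control in C57BL/6J in more narrow regions than in A/J, though the difference between strains was not tested. In C57BL/6J, 920 narrow regions ranked 20 points or more higher on Reversal and 656 lower. In A/J only 41 ranked higher and 7 lower, and 71.4% were within 5 points. Among all regions with a peak in both lists, 7.03% were higher and 5.37% lower in C57BL/6J, against 9.26% and 1.33% of narrow regions on that scale. In A/J the background was 1.39% higher and 0.884% lower, against 0.322% and 0.539%. The direction of the A/J counts depends on what is ranked. By the place in the whole list 251 A/J regions differed, 18.7% of them upward, against 85.4% by rank among narrow regions, and with the mean signal of a list's peaks 128 differed, 53.9% upward. For C57BL/6J the upward share was 70.2% by the place in the whole list, against 58.4%.

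Between Reversal and HF, 177 narrow regions of C57BL/6J ranked 20 points or more higher and 168 lower, and in A/J 365 were higher and 425 lower. The background in C57BL/6J was 2.10% higher and 2.06% lower, against 2.05% and 1.15% of narrow regions on the same scale. In A/J it was 3.62% and 3.64%, against 0.845% and 4.60%. By the place in the whole list 62.3% of the C57BL/6J differences were upward, against 51.3%, and 24.9% of the A/J ones, against 46.2%. Between the strains, whose lists are separate, these differences had a Pearson r of 0.29 across regions. In 48 regions the difference was 20 points or more the same way and in 6 the opposite way. Among all regions with a peak in the 4 lists the shares were 0.195% and 0.0500%, against 0.172% and 0.0333% of narrow regions on that scale. Narrow regions were 31 of the 43 and 6 of the 11 regions behind the former shares. The comparisons of Reversal with Control and with HF share the Reversal list, and each is given for itself.

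Some of the largest Reversal differences had an HF list that stood apart, and others a Reversal list. At chr6:3150839-3151668 the C57BL/6J ranks were 54.1 on Control, 98.8 on HF and 23.4 on Reversal, while the A/J ranks were 43.2, 57.8 and 28.9. The order of the diets was the same in both strains and the spread smaller in A/J. At chr6:145881278-145881588 the ranks were 57.7, 71.8 and 16.8, while A/J had 28.6, 41.4 and 17.6, and Reversal was the list farthest from the others in C57BL/6J and lowest in both strains.

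In A/J, chr7:55392602-55393181 ranked 32.3 on Control, 68.8 on HF and 22.3 on Reversal, below the 97.1, 88.7 and 75.2 of C57BL/6J. At chr2:32104006-32105030 the A/J HF list was the low one, with 9.52 against 35.9 on Control and 50.4 on Reversal, while C57BL/6J had its lowest rank on Control, at 4.49, 24.6 and 26.3. The strains thus differed in which list stood apart. The largest A/J difference downward from Control to Reversal was at chr19:12549846-12550284, at 56.8, 50.1 and 33.1, where C57BL/6J held 73.7, 69.9 and 71.6.

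A small set ranked higher on Reversal than on Control in both strains. It held 25 narrow regions, and the A/J and C57BL/6J comparisons share no list. These are 61.0% of the 41 in A/J, while 5.11% of all narrow regions were higher in C57BL/6J. They are 2.72% of the 920 in C57BL/6J, while 0.228% of all narrow regions were higher in A/J. Over all narrow regions the Pearson r was 0.01 and the Spearman correlation -0.03, of the other sign. No region was 20 points or more lower in both strains, and 1 went opposite ways, chr15:83951490-83952064, described above. Among all regions with a peak in the 4 lists 0.109% differed the same way and 0.00% opposite ways, against 0.122% and 0% of narrow regions on that scale. Of the 23 that differed the same way there, 22 were narrow regions. In C57BL/6J the median rank of the 25 was 35.6 on Control (lowest 1.76, highest 62.6) and 60.5 on Reversal (37.5 to 86.0). In A/J it was 12.5 on Control (2.13 to 66.4) and 51.9 on Reversal (40.8 to 93.3). Control and Reversal chose the set, so these values are a description.

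The HF lists, which did not choose the set, placed it differently in each strain. The median HF rank was 33.2 in C57BL/6J, near Control, and 43.1 in A/J, near Reversal. The HF rank lay between Control and Reversal in 23 of the 25 regions in A/J and in 17 in C57BL/6J. The choice of regions with Reversal well above Control leaves a wide gap for HF to fall in, so these counts are a description. The 25 lay on 15 chromosomes. Their median width was 480 bp, and 17 of them measured 350 to 600 bp, a range set after seeing the widths, which held 29.6% of all narrow regions.

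By the smaller of the 2 strains' differences the largest was at chr8:40308971-40309375, which ranked 5.28 on Control, 20.1 on HF and 51.6 on Reversal for C57BL/6J, against 7.45, 43.0 and 51.9 for A/J. Its signal was 0.0991, 0.145 and 0.356, and 0.191, 0.376 and 0.612. At chr3:94138303-94138768 the ranks were 12.4, 20.1 and 55.2, and 8.78, 43.1 and 58.1. At chr10:52237992-52238458 they were 2.20, 2.97 and 41.9, and 3.87, 38.8 and 48.5. All 3 went from the foot of both Control lists to the middle of both Reversal lists, and on HF only the A/J list had them near the middle. At chr12:7034455-7034908 the C57BL/6J ranks started higher, at 40.8, 36.9 and 62.1, against 15.1, 56.3 and 62.1 for A/J.

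**Figure D4:**
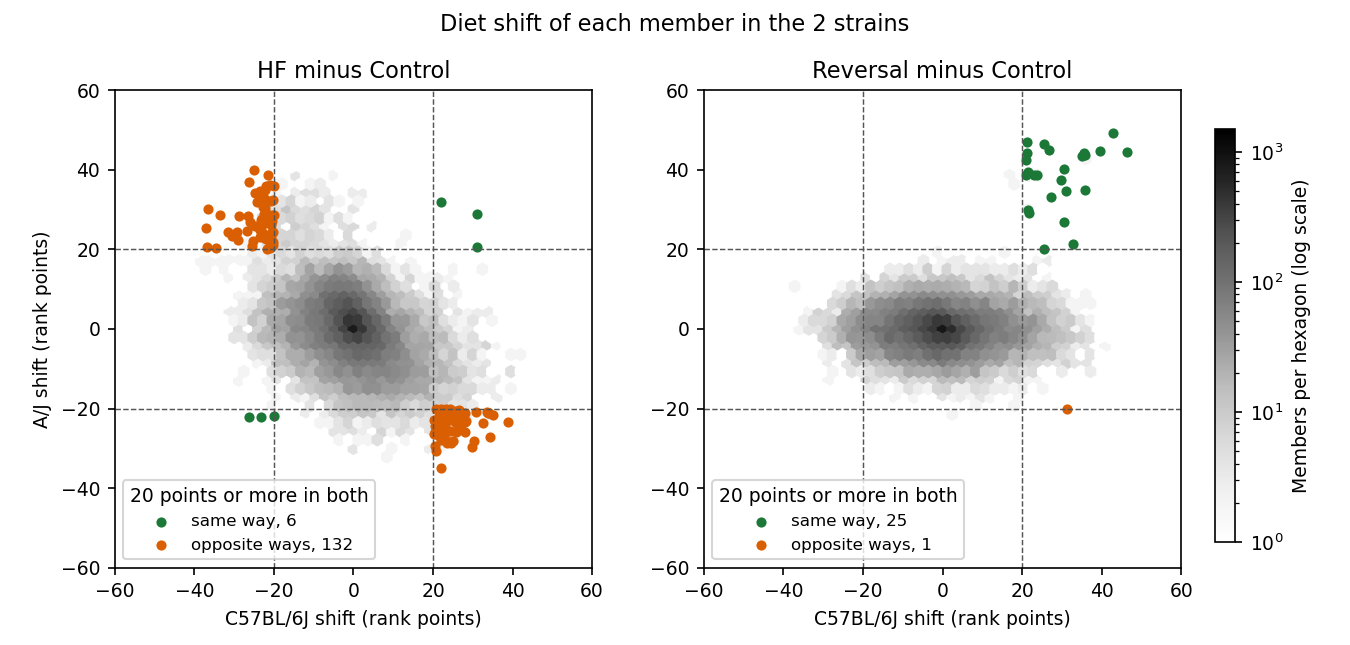
Rank difference of each narrow region in C57BL/6J (x axis) and A/J (y axis), in rank points, for HF minus Control (left) and Reversal minus Control (right), with grey for the number of regions per hexagon on a log scale. Coloured points differ by 20 points or more in both strains: 6 the same way and 132 opposite ways on HF, 25 and 1 on Reversal.

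**Figure D5:**
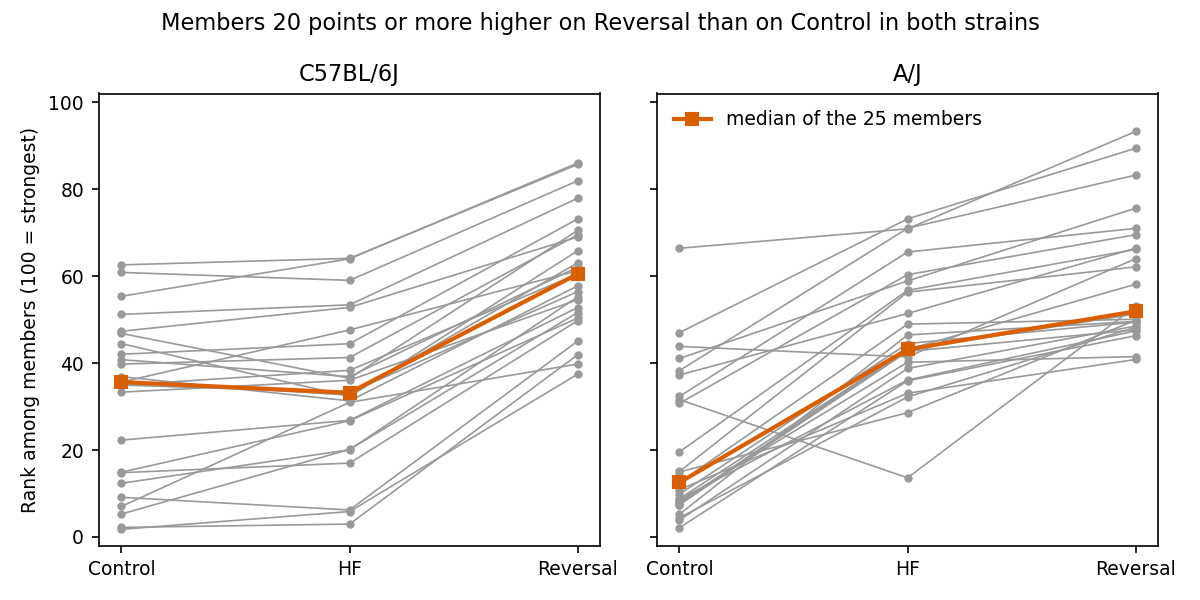
Rank among the narrow regions (y axis) on Control, HF and Reversal (x axis) for the 25 regions that ranked 20 points or more higher on Reversal than on Control in both strains, with 1 grey line per region and the median in orange. On HF the median is 33.2 in C57BL/6J and 43.1 in A/J.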

How the data were processed

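FAIRE-seq was run on liver of 2 strains on 3 diets, with 2 libraries each, grouped by their titles. The authors deposited 1 peak list per strain and diet, with start, end, signal and summit of each peak, and a list's strain and diet are known from its name. The peak caller, its threshold and any pooling of libraries are not given in the sources used here. According to the submitters' processing notes Bowtie2, TopHat, DESeq2 and mm9 were used, with no role stated. The 2 expression tables were not used.

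Peaks were merged and ranked in Python 3.11.15 with pandas 2.3.3 and numpy 2.4.6. The same narrow regions were ranked in every list, so list length does not enter the ranks, though it can enter the choice of regions. Tied signals took their mean rank. From 63.8% (A/J Control) to 82.7% (C57BL/6J Control) of narrow regions had a tied signal. Differences of 20 points or more were counted. Merging, ranking and the strain difference on Control were tested on simulated lists with a single, separate peak per region. Diet differences, tied signals and several peaks in a region were not simulated. Named regions are, by rule, the extremes of mean rank, strain difference and each diet difference, the steadiest, those that differed most in both strains, and those at the width limit. Only some of these are described. The members, lists, rules and comparisons were chosen with earlier results of these data known. The principal component, the peak shapes of classes and the 25 regions higher on Reversal were examined after values were seen. Alternatives varied merging, width, ranking, signal and the difference counted.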

Additional observations from a re-analysis of the deposited data

Results flagged for a closer look

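The difference between HF and Control went in opposite directions in the 2 strains in 132 narrow regions, by 20 points or more in each. The difference between strains was not tested, since each strain and diet has 1 list. Outside chromosomes 1 to 19, chromosome X held 364 regions under 1500 bp with a peak in all 6 lists and chromosome Y held 12. These were left out by the rule and entered no comparison.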

How the results depend on the processing

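Of 134 values recomputed under an alternative, 100 stayed within 1.5 times of the reported count or 0.05 of the reported correlation. No recomputed Pearson correlation between strains changed sign. Values below are in the order HF against Control, Reversal against Control and Reversal against HF. Counting 10 points, 4685, 5885 and 2635 C57BL/6J regions differed, and 4139, 1019 and 4137 A/J regions. Counting 30 points, these were 166, 232 and 49, and 147, 29 and 148. Between strains, 10166 regions differed by 10 points on Control, 5495 on HF and 7117 on Reversal, and 2843, 475 and 1064 by 30 points. In both strains 211, 242 and 787 differed by 10 points the same way and 1495, 189 and 225 opposite ways. Ranked in the whole list, 639 C57BL/6J regions differed between Reversal and HF and 251 A/J regions between Reversal and Control, where the mean signal of a list's peaks gave 128 and their sum 91. On the whole-list rank the correlations between strains were -0.31, 0.11 and 0.23. There 26 regions differed the same way in both strains between HF and Control, and 16 and 15 opposite ways for Reversal against Control and against HF. The more frequent direction turned in some counts. Counting 10 points, the upward share became 48.7%, 49.1% and 51.5% in C57BL/6J, then 44.6%, 49.1% and 54.2% in A/J, and between strains 49.0% on Control and 51.3% on HF. Counting 30 points, it was 42.9% for Reversal against HF in C57BL/6J and 47.5% between strains on Reversal. For Reversal against HF in C57BL/6J it was 49.1% with the mean and 49.9% with the summed signal. The number of narrow regions stayed within 1.5 times under other merging and width limits and with the strongest 75% of each list, where nothing else was recomputed. The counts of ranks that did not overlap between strains stayed so with each list left out. No recomputed value moved this far with 1 peak in every list, or without regions with a signal of 10 or more, a choice made after seeing the data. The causes of these changes were not tested, except that a smaller difference counts more regions by construction. No paired analysis was possible because the lists carry no replicate numbers, and no library could be left out because each strain and diet has 1 list. The files give no depth, so no interval could be set.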
